A study of Homo sapiens with 6 samples.

Results

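Integrins are the receptors with which cells hold on to the matrix around them, and laminins are the large proteins of the basement membrane, the sheet under epithelia, that several integrins bind. Of the 58735 genes in the deposited count table of A549 libraries, 38 are protein-coding genes of these families, taken by their symbols (ITGA and ITGB genes, and LAMA, LAMB and LAMC genes) and by no level or change of the single gene. They comprise 18 integrin alpha, 8 integrin beta, 5 laminin alpha, 4 laminin beta and 3 laminin gamma genes. In these cells 16 of the 38 had a mean of at least 1 FPKM over the 6 libraries, and the set was led by ITGB1, ITGA3, ITGB4, LAMB3, ITGB5 and LAMA5. Between the libraries titled OE_GPX3 and those titled Vector, 0 of the 30 integrin and laminin genes with enough counts to be tested passed the test (0.263% of all tested genes did), and every member of at least 1 FPKM had a 95% interval of its fold within 1.5-fold in either direction.

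The libraries come from A549, an established human lung adenocarcinoma line. In 3 libraries, titled OE_GPX3, the genotype is given as overexpression; in the other 3, titled Vector, it is given as WT. GPX3 encodes a secreted, selenium-containing glutathione peroxidase. The question named in the series title is how GPX3 acts on lung adenocarcinoma through HSPB1 and the Hippo pathway, whose transcriptional arm is YAP with TEAD factors. How the overexpression was made, whether either group is a single clone or a pool, and whether replicates are separate cultures remain not given in the sources used here. Accordingly p-values measure only the spread between these libraries, which may be technical. Total counts were between 15831693 and 18751815 per library, and protein-coding genes took from 97.2% to 97.6% of them, although the labels' protocol describes a small RNA library. GPX3 itself was at 411, 327 and 432 FPKM in OE_GPX3 libraries, against 11.2, 10.6 and 12.5 FPKM in Vector libraries, which is 33.8-fold (log2 fold change 5.08, SE 0.13, edgeR adjusted p = 2.0e-27). On the second principal component of all tested genes, with 23.3% of the variance, OE_GPX3 replicate 1 stood at 29.97 and the other 5 libraries between -15.03 and 6.39, so results that turn on this library are given with and without it.

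An integrin is a pair of an alpha and a beta chain. ITGB1 pairs with many alpha chains, ITGB4 only with ITGA6, ITGB2 with the alpha chains of leukocytes, and ITGB3, ITGB5, ITGB6 and ITGB8 with ITGAV. A laminin is a cross-shaped trimer of an alpha, a beta and a gamma chain, assembled in the cell before it is secreted. Integrins inside the cell meet talin, kindlin and the kinases of focal adhesions, except ITGB4, which meets plectin and the keratin filaments in hemidesmosomes. Attachment to matrix through focal adhesions is among the inputs known to set the activity of YAP. In the lung, epithelial cells rest through laminin-binding integrins on a basement membrane rich in LAMA5.

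The stretch around the transcription start is shown for 4 members. The reasons are that the Hippo pathway of the series title acts through TEAD factors, and that LAMB1 and LAMC1 varied alike from library to library. LAMA5 and LAMA3, whose windows are not shown, likewise were highest in OE_GPX3 replicate 1 and lowest in OE_GPX3 replicate 2. RefSeq (GRCh38.p14) sequences from 250 bases before to 50 bases after the start were matched by symbol for 26 of the 38 genes. They were searched on both strands for the TEAD core motif GGAATG, the AP-1 motif TGANTCA and the GC box GGGCGG. In the first pair capitals mark the TEAD and AP-1 motifs: ITGB1 lies at chr10:32958181-32958480 and ITGA5 at chr12:54419217-54419516, both on the minus strand. The ITGB1 window is set by the RefSeq start. The gene as counted spans chr10:32900319-33005792, so its outermost start, at 33005792, lies outside this window. In the second pair capitals mark GC boxes: LAMB1 lies at chr7:108003112-108003411 on the minus strand and LAMC1 at chr1:183023170-183023469 on the plus strand.
ITGB1: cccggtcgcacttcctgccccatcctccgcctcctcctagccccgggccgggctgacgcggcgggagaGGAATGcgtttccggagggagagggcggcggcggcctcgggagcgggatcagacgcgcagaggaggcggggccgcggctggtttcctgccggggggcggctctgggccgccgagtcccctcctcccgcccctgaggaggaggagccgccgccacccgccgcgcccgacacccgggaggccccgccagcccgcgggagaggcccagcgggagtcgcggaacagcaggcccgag
ITGA5: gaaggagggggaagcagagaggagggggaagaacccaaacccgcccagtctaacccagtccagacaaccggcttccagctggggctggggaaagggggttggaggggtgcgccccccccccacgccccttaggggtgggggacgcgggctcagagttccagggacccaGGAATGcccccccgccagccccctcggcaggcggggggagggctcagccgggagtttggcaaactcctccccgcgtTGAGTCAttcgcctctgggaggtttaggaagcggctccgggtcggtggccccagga
LAMB1: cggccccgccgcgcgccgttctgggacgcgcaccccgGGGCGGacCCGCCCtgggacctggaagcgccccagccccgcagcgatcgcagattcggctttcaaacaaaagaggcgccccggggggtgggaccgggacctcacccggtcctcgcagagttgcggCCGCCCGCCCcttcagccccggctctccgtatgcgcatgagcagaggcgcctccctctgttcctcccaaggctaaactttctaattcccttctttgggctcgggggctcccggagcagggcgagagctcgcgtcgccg
LAMC1: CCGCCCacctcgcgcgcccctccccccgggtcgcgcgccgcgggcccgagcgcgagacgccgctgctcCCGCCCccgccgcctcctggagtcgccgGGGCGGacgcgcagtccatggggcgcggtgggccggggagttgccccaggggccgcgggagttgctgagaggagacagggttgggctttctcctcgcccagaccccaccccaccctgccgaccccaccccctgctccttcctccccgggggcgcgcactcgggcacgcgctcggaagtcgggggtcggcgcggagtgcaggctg

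The TEAD motif was present in 4 of the 26 windows (15.4%), those of ITGA5, ITGB1, ITGA10 and LAMA2, against 14.0% of all 27305 promoter windows of the same length. The AP-1 motif was in 2 of 26 (7.69%), those of ITGA5 and LAMA3, against 7.76% of all windows. ITGA5 was the gene with both. GC boxes were in 14 of 26 (53.8%), against 44.6% of all windows. The windows had a median GC content of 61.5%, against 58.3% over all promoter windows, and the highest were 82.7% for LAMA5, 79.0% for LAMC1 and 78.3% for ITGB1. A match describes the letters and is not a site of binding, and DNA outside these windows was not searched.

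Among the beta chains, 3 carried nearly all of the signal. ITGB1, on chr10:32900319-33005792, was the most abundant member over the 6 libraries and ranked 271st of 19951 protein-coding genes by mean FPKM. It was at 138, 127 and 113 FPKM in OE_GPX3 libraries, against 153, 139 and 138 FPKM in Vector libraries. The groups met at 138 FPKM, and the 2 lowest values were OE_GPX3 replicates 2 and 3. ITGB4, the hemidesmosome chain, on chr17:75721328-75757818, had 115, 119 and 130 FPKM in OE_GPX3 libraries, against 114, 99.5 and 121 FPKM in Vector libraries. ITGB5, a partner of ITGAV in a vitronectin receptor, on chr3:124761948-124901418, had 95.2, 84.1 and 87.0 FPKM in OE_GPX3 libraries, against 79.7, 79.0 and 88.9 FPKM in Vector libraries. Both genes had overlapping groups. The remaining 5 beta chains were each under 0.7 FPKM in every library. ITGB2, the beta chain of leukocyte integrins, averaged 0.596 ± 0.0867 FPKM in OE_GPX3 libraries and 0.532 ± 0.0193 FPKM in Vector libraries (SD, n = 3 each). ITGB6 and ITGB8, whose pairs with ITGAV activate latent TGF-beta, were at 0.0593 to 0.227 FPKM over the 6 libraries. ITGB3 and ITGB7 had too few counts to be tested.

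ITGA3, a receptor for the laminins with LAMA3 or LAMA5, was the leading alpha chain. This gene on chr17:50055968-50090481 had 131, 130 and 145 FPKM in OE_GPX3 libraries, against 111, 111 and 129 FPKM in Vector libraries. All 3 OE_GPX3 values lay above all 3 Vector values, OE_GPX3 replicate 2 by the smallest margin (130 against 129 FPKM in Vector replicate 3). ITGA3 made up 77.5% ± 1.03 of the summed FPKM of the 18 alpha chains in OE_GPX3 libraries and 74.5% ± 1.82 in Vector libraries (SD, n = 3 each).

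The other alpha chains of at least 1 FPKM lay well below ITGA3. ITGA5, the fibronectin receptor chain, had 14.8, 15.4 and 16.8 FPKM in OE_GPX3 libraries, against 13.8, 14.4 and 16.6 FPKM in Vector libraries. ITGA6, a laminin receptor chain that pairs with ITGB1 or ITGB4, on chr2:172427354-172506282, had 8.30, 7.12 and 7.30 FPKM in OE_GPX3 libraries, against 10.0, 9.03 and 8.15 FPKM in Vector libraries. OE_GPX3 replicate 1 overlapped Vector replicate 3, and the other 2 OE_GPX3 values were the lowest of the 6. ITGAV, the alpha chain of receptors for vitronectin and other RGD ligands, had 7.28, 6.74 and 5.77 FPKM in OE_GPX3 libraries, against 8.06, 6.40 and 6.26 FPKM in Vector libraries, with overlapping groups. ITGAE, known on T cells of the gut epithelium as the partner of ITGB7, averaged 4.10 ± 0.474 FPKM in OE_GPX3 libraries and 4.02 ± 0.0431 FPKM in Vector libraries (SD, n = 3 each). ITGA2, a collagen receptor chain, averaged 2.41 ± 0.367 FPKM in OE_GPX3 libraries and 2.63 ± 0.294 FPKM in Vector libraries (SD, n = 3 each). In each of the 6 libraries the order from high to low was ITGA3, ITGA5, ITGA6, ITGAV, ITGAE and ITGA2.

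Below 1 FPKM on average stood 8 tested alpha chains. ITGA7, a laminin receptor chain best known from muscle, had 1.05, 0.696 and 0.941 FPKM in OE_GPX3 libraries, against 0.670, 0.694 and 0.667 FPKM in Vector libraries. OE_GPX3 replicates 1 and 3 stood above the rest, while replicate 2 was level with Vector replicate 2. ITGAX, a chain of myeloid cells, had 0.149, 0.301 and 0.0921 FPKM in OE_GPX3 libraries, against 0.118, 0.122 and 0.103 FPKM in Vector libraries, with OE_GPX3 replicate 2 alone high. ITGA11, a collagen receptor chain of fibroblasts, had 0.0461, 0.174 and 0.0900 FPKM in OE_GPX3 libraries, against 0.0613, 0.0983 and 0.0559 FPKM in Vector libraries, again with replicate 2 of OE_GPX3 alone high. ITGAM, ITGA2B, ITGAL, ITGA1 and ITGA10 ranged from 0.00962 to 0.646 FPKM over the 6 libraries.

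The chains that define leukocyte and platelet integrins could be set beside markers of those cells. Of 8 leukocyte markers, summed to between 18.4 and 18.9 CPM in OE_GPX3 libraries and between 13.4 and 17.8 CPM in Vector libraries, TYROBP was at 0 in every library and PTPRC, the gene for CD45, had at most 2 counts in a library. CD14 gave most of that sum, with 242 to 302 counts in OE_GPX3 libraries and 225 to 264 counts in Vector libraries. The 5 platelet markers summed to between 6.37 and 9.09 CPM in OE_GPX3 libraries and between 6.66 and 7.51 CPM in Vector libraries. The 5 endothelial markers were under 1 CPM in sum, with KDR and ERG at 0, and the 5 fibroblast markers summed to between 3.31 and 7.01 CPM in OE_GPX3 libraries and between 4.06 and 4.53 CPM in Vector libraries. All 9 epithelial markers of the line were tested, and they summed to between 39275 and 47570 CPM in OE_GPX3 libraries and between 35972 and 38508 CPM in Vector libraries, so that the groups did not overlap. Among them KRT19 had a log2 fold change of 0.46 (SE 0.11, edgeR adjusted p = 0.0541). DESeq2 called 1 of the 9 markers (0.802% of all tested genes). Without OE_GPX3 replicate 1 edgeR called 3 of the 9 (4.47% of all tested genes). Whether the difference in the epithelial sum has a part in the results for integrins and laminins was not tested. In bulk RNA fewer cells of a type and less RNA per cell cannot be told apart.

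Too few counts to test were found for 8 members, and none of the 38 was at 0 in every library. Summed over 3 libraries, ITGAD had 15 counts in OE_GPX3 and 12 in Vector, ITGB7 had 7 in OE_GPX3 and 19 in Vector, and ITGB3 had 5 in OE_GPX3 and 12 in Vector. LAMB4 had 8 counts in OE_GPX3 and 12 in Vector, ITGA9 had 8 in OE_GPX3 and 9 in Vector, and ITGA4 had 6 in OE_GPX3 and 9 in Vector. ITGA8, known from kidney development, had 1 count in OE_GPX3 and 2 in Vector, and LAMA1, the alpha chain of embryonic basement membranes, had 3 in OE_GPX3 and 2 in Vector. ITGB7 shares 42.1% of its exonic bases with ZNF740 on the opposite strand, which had 667 to 900 counts per library, and how strand was used in counting remains not given in the sources used here. ITGB3 shares 51.6% of its exonic bases with AC068234.1 on the same strand, which had 0 counts in every library. How reads in such shared exons were counted is not given either.

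**Figure D1:**
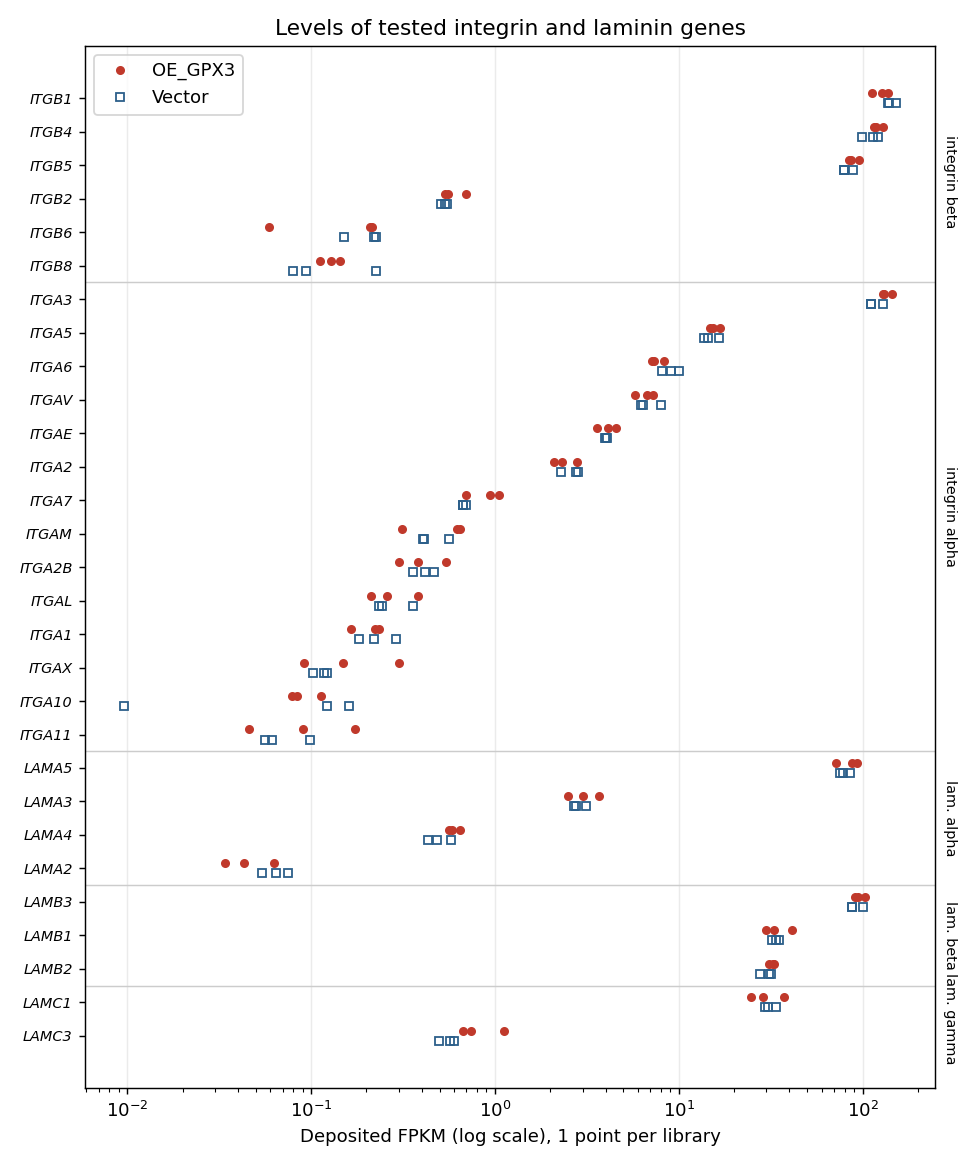
Deposited FPKM (x axis, log scale) of tested integrin and laminin genes, 1 filled circle per OE_GPX3 library and 1 open square per Vector library, grouped by chain type. Of the beta chains, 3 lie near 100 FPKM and 5 are below 1 FPKM (2 of these were not tested and are not drawn), and the circles and squares of most genes overlap; ITGA3, LAMC3 and, by a hair, ITGA7 have all circles to the right of all squares, although ITGA7 overlaps on the TMM-scaled counts.

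LAMA5, the alpha chain of the main laminins of adult epithelial basement membranes, made up 95.8% ± 0.244 of the summed FPKM of the 5 laminin alpha chains in OE_GPX3 libraries and 95.9% ± 0.470 in Vector libraries (SD, n = 3 each). This gene on chr20:62307955-62367312 had 93.6, 71.9 and 88.2 FPKM in OE_GPX3 libraries, against 78.5, 75.2 and 85.5 FPKM in Vector libraries. The OE_GPX3 libraries held both the highest and the lowest value. LAMA3, the chain that joins LAMB3 in the laminin of hemidesmosomes, had 3.67, 2.51 and 3.01 FPKM in OE_GPX3 libraries, against 3.15, 2.69 and 2.76 FPKM in Vector libraries, and again OE_GPX3 replicate 1 was highest and replicate 2 lowest. LAMA4, a chain of vessel walls, had 0.649, 0.562 and 0.586 FPKM in OE_GPX3 libraries, against 0.580, 0.483 and 0.430 FPKM in Vector libraries. LAMA2, the chain of muscle basement membranes, had 0.0430, 0.0343 and 0.0629 FPKM in OE_GPX3 libraries, against 0.0750, 0.0540 and 0.0645 FPKM in Vector libraries. Both genes had overlapping groups.

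LAMB3 was the leading laminin gene, on chr1:209614870-209652466. It had 94.0, 90.6 and 103 FPKM in OE_GPX3 libraries, against 87.5, 87.5 and 101 FPKM in Vector libraries. Its groups overlapped. The FPKM ratio of LAMB3 over LAMA3 was 32.0 ± 5.61 in OE_GPX3 libraries and 32.3 ± 4.33 in Vector libraries (SD, n = 3 each). LAMB3 and LAMA3, known to assemble in equal numbers into this trimer, had unequal FPKM in every library. The length used was 14678 bases for LAMA3 and 4688 bases for LAMB3. The RefSeq window of LAMA3, chr18:23872770-23873069, lies inside the gene as counted, chr18:23689443-23956222. Which LAMA3 transcripts were made was not tested. If they are shorter than the length used, the FPKM of LAMA3 are too low and this ratio too high.

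LAMB1, LAMB2 and LAMC1, the beta and gamma chains that trimerise with LAMA5, were close to each other in level. LAMB1 had 41.4, 29.8 and 32.9 FPKM in OE_GPX3 libraries, against 35.3, 33.9 and 32.3 FPKM in Vector libraries. LAMB2 had 31.1, 32.8 and 33.1 FPKM in OE_GPX3 libraries, against 31.1, 27.7 and 31.8 FPKM in Vector libraries. LAMC1 had 37.3, 24.7 and 28.7 FPKM in OE_GPX3 libraries, against 33.9, 30.7 and 29.5 FPKM in Vector libraries. For LAMB1 and LAMC1 the highest and the lowest of the 6 libraries were both OE_GPX3 libraries, replicates 1 and 2, and for LAMB2 the groups overlapped without that pattern. LAMB1 was above LAMC1 in all 6 libraries, while the place of LAMB2 in the order changed from library to library. The ratio of LAMB1 over LAMC1 lay between 1.04 and 1.21 in the 6 libraries, at 1.15 ± 0.0492 in OE_GPX3 libraries and 1.08 ± 0.0337 in Vector libraries (SD, n = 3 each). The groups did not overlap, with OE_GPX3 replicate 1 at 1.110 and Vector replicate 2 at 1.106 as the closest values, and the ratio was not tested.

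LAMC3, the gamma chain of low abundance in these cells, on chr9:131009082-131094473, had 0.740, 0.670 and 1.12 FPKM in OE_GPX3 libraries, against 0.497, 0.602 and 0.568 FPKM in Vector libraries. All 3 OE_GPX3 values were above all 3 Vector values, and OE_GPX3 replicate 3 was the farthest. It was the tested member with the smallest p (log2 fold change 0.58, SE 0.21, 95% interval 0.16 to 1.00, unadjusted p = 0.00827, edgeR adjusted p = 0.205). This did not pass the threshold of 0.05.

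Some members lie next to each other in the genome. LAMB1 and LAMB4 are 20.3 kb apart on chromosome 7. LAMB1 averaged 34.7 ± 5.99 FPKM in OE_GPX3 libraries and 33.8 ± 1.54 FPKM in Vector libraries, and LAMB4 averaged 0.0228 ± 0.00557 FPKM in OE_GPX3 libraries and 0.0317 ± 0.0138 FPKM in Vector libraries (SD, n = 3 each). ITGA1 and ITGA2, both collagen receptor chains, are 30.1 kb apart on chromosome 5, with ITGA2 the higher in every library. ITGAM, ITGAX and ITGAD follow each other on chromosome 16 with gaps of 22.2 and 10.3 kb, and all 3 were under 1 FPKM.

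The comparison of OE_GPX3 with Vector asked whether the RNA of any integrin or laminin differed with GPX3. By edgeR's quasi-likelihood test with adjustment over all 14458 genes tested, 0 of 30 members passed an adjusted p of 0.05, where 0.263% of all tested genes did (38, of which 14 were higher and 24 lower). DESeq2 called 0 of the 16 members to which it gave an adjusted p, and limma on log2(FPKM + 1) called 0 of the 16 members of at least 1 FPKM. Of all 14458 tested genes, those without an adjusted p included, DESeq2 called 0.802%. At an unadjusted p under 0.05 there were 2 members, LAMC3 and ITGA6, by edgeR, against 14.6% of all tested genes, and DESeq2 gave 3, against 12.8% of all. Groups did not overlap for 2 of 30 members, ITGA3 and LAMC3, both higher in OE_GPX3 (18.5% of all tested genes had groups that did not overlap, 8.62% higher and 9.9% lower). The members' share was thus 6.67% on both counts, which is 2 genes each. Whether this differs from the share over all tested genes was not tested.

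ITGA6 had the second smallest p (log2 fold change -0.28, SE 0.11, 95% interval -0.51 to -0.04, edgeR adjusted p = 0.271). ITGB1 had a log2 fold change of -0.20 (SE 0.11, edgeR adjusted p = 0.370), and ITGA3, which can pair with it, had 0.19 (SE 0.10, edgeR adjusted p = 0.394). ITGA7 stood at 0.39 (SE 0.20, edgeR adjusted p = 0.373) and ITGAX at 0.65 (SE 0.41, edgeR adjusted p = 0.465). Of the other low genes, ITGA11 was at 0.48, LAMA2 at -0.48 and LAMA4 at 0.25 on the log2 scale. The well measured members were closer to 0: ITGB4 at 0.10, ITGB5 at 0.09, LAMB3 at 0.04, LAMA5 at 0.07, LAMB2 at 0.08, LAMB1 at 0.02, LAMC1 at -0.07, ITGA5 at 0.05, ITGAV at -0.08 and LAMA3 at 0.08. Intervals stayed within 1.5-fold either way for 16 of 30 members, and these 16 were the members of at least 1 FPKM. The median log2 fold change was 0.05 over the 30 members and -0.02 over all tested genes, and 19 of 30 members were above 0 (63.3%), against 47.4% of all tested genes.

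**Figure D2:**
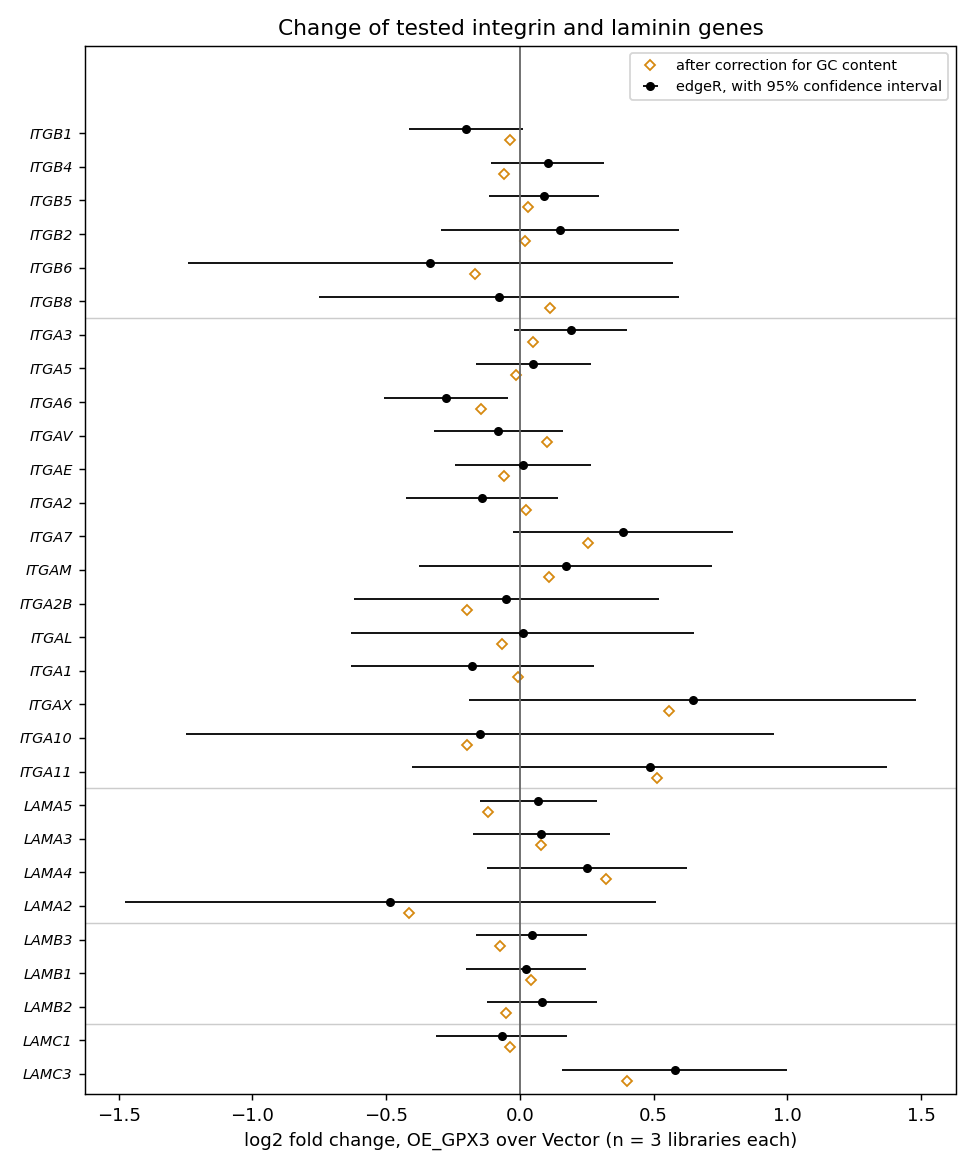
Log2 fold change of OE_GPX3 over Vector (x axis) for tested integrin and laminin genes, with filled circles and bars for the edgeR estimate and its 95% confidence interval (3 libraries per group) and open diamonds for the estimate after correction for GC content. The bars of LAMC3 and ITGA6 are the only ones that exclude 0, and neither gene passed adjustment over all genes.

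ITGB1 and ITGA3, which together form a laminin receptor, had estimates of opposite sign. ITGB1 over ITGA3 was 1.06, 0.980 and 0.778 in OE_GPX3 libraries, against 1.37, 1.25 and 1.07 in Vector libraries. The groups did not overlap, with OE_GPX3 replicate 1 and Vector replicate 3 as the closest values. ITGB4 over ITGA6, the chains of the hemidesmosome integrin, was 13.8, 16.7 and 17.8 in OE_GPX3 libraries, against 11.3, 11.01 and 14.9 in Vector libraries, and here OE_GPX3 replicate 1 lay below Vector replicate 3. ITGB5 over ITGAV averaged 13.5 ± 1.37 in OE_GPX3 libraries and 12.1 ± 2.16 in Vector libraries (SD, n = 3 each). Summed beta chains over summed alpha chains gave 1.94 ± 0.128 in OE_GPX3 libraries and 2.15 ± 0.110 in Vector libraries (SD, n = 3 each), without overlap. The summed beta chains were at 337 ± 10.3 FPKM in OE_GPX3 libraries and 338 ± 17.1 FPKM in Vector libraries, and the summed alpha chains at 174 ± 8.33 FPKM in OE_GPX3 libraries and 157 ± 9.82 FPKM in Vector libraries (SD, n = 3 each). The ratios were not tested.

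The base composition of the transcripts moved with these differences. ITGB1 has a transcript GC content of 40.0%, ITGA6 of 42.9% and ITGAV of 38.3%, and their estimates were below 0, while ITGA3 has 61.3%, ITGB4 63.7% and LAMC3 64.3%, and theirs were above 0. The Spearman correlation of GC content with log2 fold change was 0.62 over the 30 members and 0.72 over the 16 members of at least 1 FPKM, and it was 0.53 over all 14458 tested genes. These are correlations across genes that share the same 6 libraries. With GC content fitted and removed, the correlations were -0.05 over the 30 members, -0.36 over the 16 and 0.02 over all genes. ITGB1 then stood at -0.04, ITGA3 at 0.05, ITGA6 at -0.14, LAMC3 at 0.40 and ITGA7 at 0.25 on the log2 scale, and 15 of 30 members were above 0. ITGB4 at -0.06, LAMA5 at -0.12, LAMB3 at -0.07, LAMB2 at -0.05, ITGA5 at -0.01 and ITGAV at 0.10 changed sign. So did ITGAE at -0.06, ITGA2 at 0.02, ITGAL at -0.07 and ITGB8 at 0.11. The median over the members was 0.01 after correction, against 0.00 over all tested genes, 0 of 30 members passed (0.0277% of all tested genes did), and 0 had an unadjusted p under 0.05 (9.72% of all tested genes did).

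**Figure D3:**
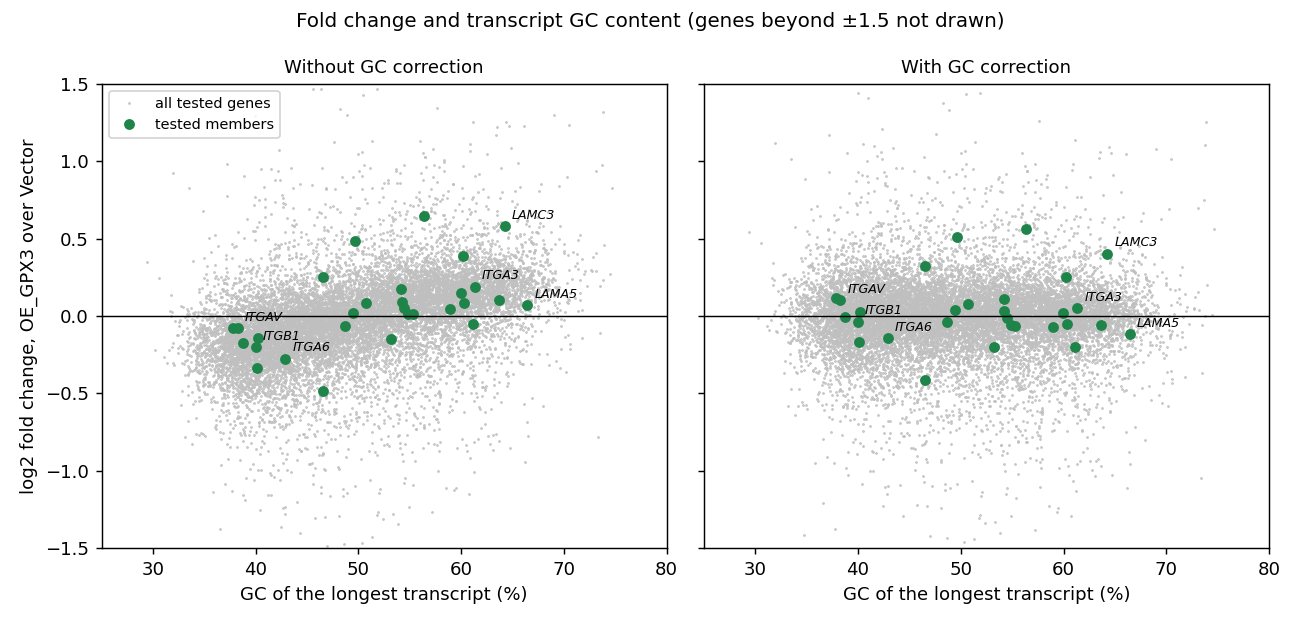
Log2 fold change of OE_GPX3 over Vector (y axis) against the GC content of the longest transcript in percent (x axis), without GC correction on the left and with it on the right, with all tested genes as grey points and tested integrin and laminin genes as green points. On the left both sets of points climb from low to high GC content, and on the right the members lie on both sides of 0.

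Within OE_GPX3 some laminins differed between replicate 1 and replicate 2. Of the 7 laminin genes of at least 1 FPKM, 4 (LAMA5, LAMA3, LAMB1 and LAMC1) had their highest TMM-scaled level of the 6 libraries in OE_GPX3 replicate 1, and the same 4 had their lowest in OE_GPX3 replicate 2. Of all 10704 tested genes of at least 1 FPKM, 4.66% had both extremes in these libraries, 17.4% their highest level in OE_GPX3 replicate 1 and 17.7% their lowest in OE_GPX3 replicate 2. LAMB3 and LAMB2 had their highest level in OE_GPX3 replicate 3 and their lowest in Vector replicate 2. On the log2 scale relative to the mean of 6 libraries, LAMC1 was at 0.29 and LAMB1 at 0.28 in OE_GPX3 replicate 1, and at -0.32 and -0.20 in OE_GPX3 replicate 2. LAMC1 had a log2 fold change of -0.25 without OE_GPX3 replicate 1 and 0.07 without OE_GPX3 replicate 2, and LAMB1 had -0.13 without OE_GPX3 replicate 1 and 0.13 without OE_GPX3 replicate 2. Their directions thus rested on which library was kept.

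Leaving out OE_GPX3 replicate 1 also changed the background. Without it, 4.47% of 14707 tested genes were called, and 20.8% had an unadjusted p under 0.05. Of the integrin and laminin genes 0 were called, and 5 had an unadjusted p under 0.05: ITGA3, ITGB1, LAMC1, ITGA6 and LAMC3. The smallest adjusted p among them were 0.057 for LAMC3 and 0.060 for ITGA6.

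**Figure D4:**
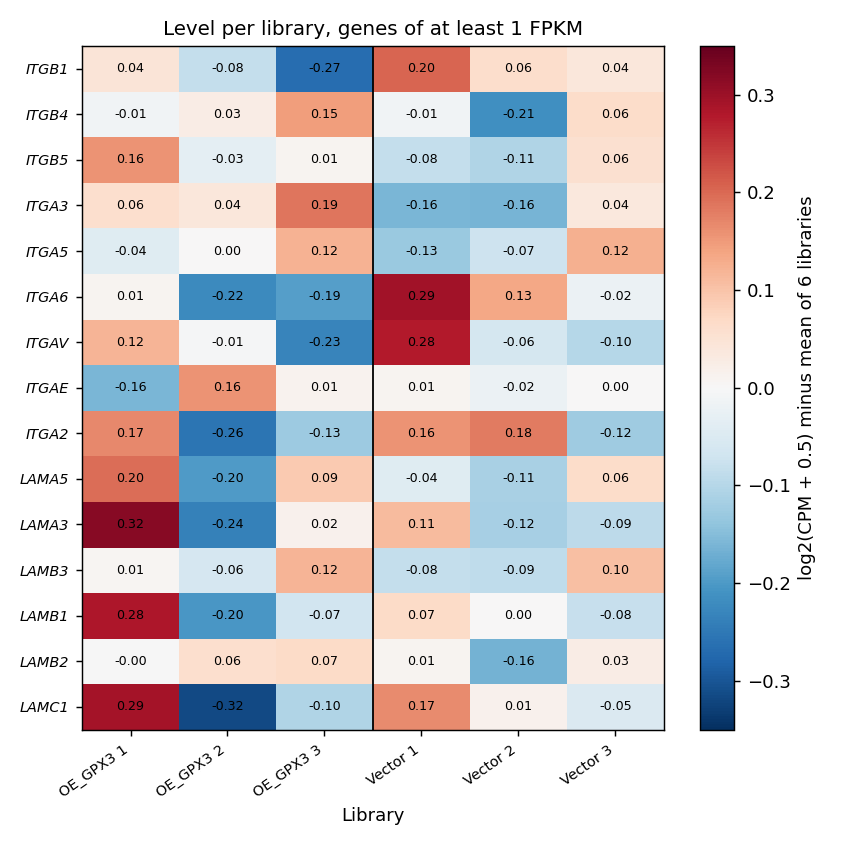
TMM-scaled level of integrin and laminin genes of at least 1 FPKM (rows) in each library (columns, OE_GPX3 left of the line and Vector right of it), as log2(CPM + 0.5) minus the gene's mean over the 6 libraries, red above and blue below that mean. LAMA5, LAMA3, LAMB1 and LAMC1 are red in OE_GPX3 replicate 1 and blue in OE_GPX3 replicate 2.

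Some members share exonic bases with another gene, so that reads there could be assigned to either. LAMA5 shares 244 bases (1.71% of its exons) with ADRM1 on the opposite strand, and LAMB1 shares 70 bases with DLD on the opposite strand. ITGAE shares 427 bases (6.41%) with HASPIN on the opposite strand. ITGB1 shares 42 bases with its divergent transcript ITGB1-DT, and ITGA7 shares 44 with METTL7B, both on the opposite strand. ITGA1 shares 475 bases with PELO on the same strand, which had 879 to 1271 counts per library. Of these neighbours PELO had a log2 fold change of -0.16 beside -0.18 for ITGA1, METTL7B 0.29 beside 0.39 for ITGA7, and ITGB1-DT -0.16 beside -0.20 for ITGB1. ADRM1 had 0.15 beside 0.07 for LAMA5, HASPIN 0.21 beside 0.01 for ITGAE, and DLD -0.13 beside 0.02 for LAMB1. None passed the test.

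The adaptors and kinases of focal adhesions connect integrins to actin. Of 34 focal adhesion genes 32 were tested and 0 were called by edgeR or by DESeq2, with 6 at an unadjusted p under 0.05 by edgeR (18.8%, against 14.6% of all tested genes) and 8 by DESeq2 (against 12.8% of all). Of these 32 estimates 23 were above 0 and 9 below, where 47.4% of all tested genes were above 0, and the median log2 fold change was 0.09, or 0.02 after GC correction. ILK, the integrin-linked kinase, had the smallest p, with 3.03, 4.25 and 2.79 CPM in OE_GPX3 libraries, against 1.24, 0.926 and 2.51 CPM in Vector libraries (log2 fold change 1.13, SE 0.31, edgeR adjusted p = 0.0966). ILK shares 68.1% of its exonic bases with TAF10 on the opposite strand, which had 345, 435 and 398 counts in OE_GPX3 libraries, against 158, 84 and 346 counts in Vector libraries, so the reads of ILK and TAF10 cannot be told apart without strand. TNS1, a tensin, had 94.1, 60.5 and 63.6 CPM in OE_GPX3 libraries, against 60.6, 46.2 and 53.7 CPM in Vector libraries (log2 fold change 0.44, SE 0.14, edgeR adjusted p = 0.173). FERMT2, a kindlin that binds the tails of beta chains, had 16.4, 13.8 and 14.9 CPM in OE_GPX3 libraries, against 20.8, 18.3 and 20.1 CPM in Vector libraries (log2 fold change -0.39, SE 0.14, edgeR adjusted p = 0.201). ILK and FERMT2 had groups that did not overlap, and in TNS1 OE_GPX3 replicate 2 lay just below Vector replicate 1. Without OE_GPX3 replicate 1 ILK was called (edgeR adjusted p = 0.00936), as it was without Vector replicate 3 (edgeR adjusted p = 0.0248). Without Vector replicate 1 TNS1 was called (edgeR adjusted p = 0.0119). Over all tested genes 4.47% were called without OE_GPX3 replicate 1. Without Vector replicate 3 the count over all genes was 35, and without Vector replicate 1 it was 116.

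Of the 12 hemidesmosome, laminin receptor and tetraspanin genes all were tested and 0 were called by edgeR or DESeq2, with 4 at an unadjusted p under 0.05 by each (33.3%, against 14.6% of all tested genes by edgeR and 12.8% by DESeq2). Here 10 estimates were above 0 and 2 below (47.4% of all tested genes were above 0), with a median log2 fold change of 0.18, or 0.05 after GC correction. BCAM, a receptor for LAMA5, had 240, 233 and 242 CPM in OE_GPX3 libraries, against 193, 165 and 210 CPM in Vector libraries (log2 fold change 0.33, SE 0.10, edgeR adjusted p = 0.151). CD81, a tetraspanin, had 462, 449 and 469 CPM in OE_GPX3 libraries, against 378, 369 and 404 CPM in Vector libraries, and SDC1, a syndecan, had 610.2, 630 and 631 CPM in OE_GPX3 libraries, against 515, 488 and 578 CPM in Vector libraries. Their log2 fold changes were 0.26 and 0.24, with edgeR adjusted p of 0.234 and 0.277. The groups of BCAM, CD81 and SDC1 did not overlap, and the GC contents of the 3 transcripts were 64.1%, 64.9% and 60.1%. After GC correction the log2 fold changes were 0.17 for BCAM, 0.09 for CD81 and 0.12 for SDC1. Without OE_GPX3 replicate 1 BCAM was called (edgeR adjusted p = 0.0394), as were 4.47% of all tested genes.

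Of the 18 basement membrane genes outside the laminins 15 were tested and 0 were called by edgeR or DESeq2, with 3 at an unadjusted p under 0.05 by edgeR (20.0%, against 14.6% of all tested genes) and 4 by DESeq2 (against 12.8% of all). Estimates were above 0 for 14 and below for 1 (47.4% of all tested genes were above 0), with a median log2 fold change of 0.12, or 0.05 after GC correction. COL4A2, a collagen IV chain, had 192, 181 and 188 CPM in OE_GPX3 libraries, against 151, 134 and 166 CPM in Vector libraries (log2 fold change 0.31, SE 0.10, edgeR adjusted p = 0.169), without overlap. COL18A1, the collagen from which endostatin is cut, had 182, 160.4 and 172 CPM in OE_GPX3 libraries, against 153, 129.8 and 158 CPM in Vector libraries (log2 fold change 0.22, SE 0.11, edgeR adjusted p = 0.321). COL18A1 shares 16.4% of its exonic bases with SLC19A1 on the opposite strand. SLC19A1 had 837 to 863 counts in OE_GPX3 libraries and 698 to 804 in Vector libraries, and reads in the shared bases cannot be told apart without strand. NTN4, a netrin that binds the gamma chains of laminins, had 52.4, 41.5 and 39.2 CPM in OE_GPX3 libraries, against 59.5, 49.99 and 51.7 CPM in Vector libraries (log2 fold change -0.27, SE 0.12, edgeR adjusted p = 0.292). OE_GPX3 replicate 1 lay within the Vector range of NTN4, and without that library NTN4 was called (edgeR adjusted p = 0.0295). In that fit 4.47% of all tested genes were called.

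Of 30 integrin ligands outside the laminins 22 were tested and 0 were called by edgeR, with 6 at an unadjusted p under 0.05 (27.3%, against 14.6% of all tested genes), while DESeq2 called 1, VTN (0.802% of all tested genes). Estimates were above 0 for 16 and below for 6 (47.4% of all tested genes were above 0), and the median log2 fold change was 0.11 before and after GC correction. VTN, vitronectin, which binds ITGAV pairs, had 175, 199 and 151 CPM in OE_GPX3 libraries, against 117, 127 and 145 CPM in Vector libraries (log2 fold change 0.43, SE 0.11, edgeR adjusted p = 0.0708). The groups did not overlap, and the log2 fold change was 0.35 after GC correction. DESeq2 gave VTN an adjusted p of 0.0347, and without OE_GPX3 replicate 1 edgeR gave 0.00503. In the latter fit 4.47% of all tested genes were called. TGFB1, whose latent form is bound by ITGAV pairs, had 228, 196 and 218 CPM in OE_GPX3 libraries, against 171, 148 and 182 CPM in Vector libraries (log2 fold change 0.36, SE 0.11, edgeR adjusted p = 0.125). TGFB1 shares 6.64% of its exonic bases with HNRNPUL1 on the opposite strand. HNRNPUL1 had 8718 to 9397 counts in OE_GPX3 libraries and 8619 to 9541 in Vector libraries, and reads in the shared bases cannot be told apart without strand. NPNT, nephronectin, a ligand of ITGA8, had 26.8, 18.2 and 16.9 CPM in OE_GPX3 libraries, against 17.2, 14.3 and 13.4 CPM in Vector libraries (log2 fold change 0.46, SE 0.16, edgeR adjusted p = 0.180). TGFB1 had groups that did not overlap, and in NPNT OE_GPX3 replicate 3 lay below Vector replicate 1.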

How the data were processed

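RNA was measured in 6 A549 libraries, 3 titled OE_GPX3 and 3 titled Vector, and these titles set the groups. The authors deposited whole-number counts per gene, not normalized to judge by the values, and FPKM, which were tested to be counts divided by gene length and by a library constant that lies from -4.52% to 4.90% off its total. The build is hg38, per the submitters' processing notes; aligner, counter and strand use remain not given in the sources used here. Gene positions in the table are those of GENCODE release 29, from which transcript GC content was taken.

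Counts were tested with edgeR 4.0.16 (filterByExpr with minimum count 10 and minimum total 15, TMM, robust quasi-likelihood test, two-sided). The p-values were adjusted over all tested genes by the Benjamini-Hochberg method, with a threshold of 0.05. The biological coefficient of variation was 0.110. CPM are TMM-scaled counts per 1e+06. Levels between genes are compared as FPKM, per length. GC correction subtracted a loess curve (span 0.3) of each library on GC content as an offset. Alternatives used DESeq2 1.42.0 and limma 3.58.1, on log2(FPKM + 1) for FPKM, whose fold changes understate those of low genes. The test was also run on simulated counts with the same dispersion for every gene and no outlying library. That run does not cover a library that stands apart, as OE_GPX3 replicate 1 does here.

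The gene families and lists were chosen with earlier results of these data known; within the families every protein-coding gene was taken by its symbol, whatever its values. Values in every library are given for the 4 integrin alpha, 3 integrin beta and 6 laminin genes of highest mean FPKM and for the 6 integrins and 6 laminins of smallest unadjusted p; of each other list the 3 genes of smallest p are named. Genes named besides these were chosen after their values were seen. Values of some genes are not reported here, although they are within the counts.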

Additional observations from a re-analysis of the deposited data

How the results depend on the processing

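Under 19 alternatives 0 integrin or laminin genes were called, including DESeq2, limma and every fit that left out a library. Counts over all genes moved from 38 to 68 with total counts alone, 116 with DESeq2, 129 with no filter on low counts and 231 with a replicate block, to 4 with GC correction, and to 10, 11 and 1 with limma on log2(FPKM + 1), on log2(FPKM + 0.1) and without a filter; leaving out 1 library gave 1 (OE_GPX3 replicate 2) to 657 (OE_GPX3 replicate 1). Focal adhesion genes called were 2 without a filter (ILK, TNS1), 1 with the block (TNS1) and 0 to 1 without a library. Hemidesmosome and basement membrane genes called were each 1 with the block (BCAM, COL4A2) and 0 to 1 without a library. Ligands called were 1 with DESeq2 and 1 without a filter (VTN), 2 with the block (VTN, TGFB1) and 0 to 1 without a library. With GC correction and the block 1 ligand was called (NPNT), and the count over all genes in that fit was 49. Of 366 fold changes of the 20 members that the naming rule picks 25 changed sign, in 10 members, and none of these was called. With total counts alone ITGA5 was at -0.0084, LAMB3 at -0.014 and LAMB1 at -0.035, and with upper-quartile scaling LAMB1 was at -0.0050. With GC correction ITGA5 was at -0.0131, ITGAV at 0.1004, ITGB4 at -0.0587, LAMB3 at -0.0743, LAMA5 at -0.118 and LAMB2 at -0.0502. With GC correction and the block ITGA5 was at -0.0115, ITGAV at 0.102, ITGB4 at -0.0559, LAMB3 at -0.0747, LAMA5 at -0.128 and LAMB2 at -0.0485. Without 1 library ITGA5 ranged from -0.00057 to 0.144, ITGAV from -0.162 to 0.0495, LAMA5 from -0.0147 to 0.184, LAMB1 from -0.130 to 0.130, LAMC1 from -0.253 to 0.0685, ITGA11 from -0.119 to 0.848 and LAMA3 from -0.0776 to 0.217. The cause of these shifts was not tested. The labels do not state that replicate numbers pair the libraries, so the main fit left the numbers out. Same-numbered libraries correlated at 0.192, 0.0104 and 0.114 in their deviations from the group means. Replicates 1 and 3 of OE_GPX3 correlated best with their own number, and replicate 2 with Vector replicate 3. These values do not decide whether the libraries are paired. The tested members under 1 FPKM had intervals that reached past 1.5-fold, and the part of depth in this was not tested. Members with too few counts to be tested have no interval.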
